A study of Mus musculus with 12 samples.

Results

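The AP-1 transcription factors and the immediate early factor Egr1 were examined in mouse scars with and without traction. The 10 genes were taken by symbol from the count tables: Fos, Fosb, Fosl1 and Fosl2 of the Fos family, Jun, Junb and Jund of the Jun family, the related leucine zipper factors Atf3 and Batf, and the zinc finger factor Egr1. All 10 were among the 35976 genes listed, and all 10 passed the filter on low counts that left 18853 genes for testing.

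RNA was sequenced from trimmed pieces of scar, with 4 groups of 3 mouse scars each. In male mice aged 8 to 12 weeks a split wound of 1.5 cm was made in the back skin, and a plastic device was fitted after 6 days. In the traction groups the device was lengthened by 1 mm per day to 8 mm in all, and in the sham groups it was worn without stretching. The groups were Tem1WT/WT sham, Tem1WT/WT with traction, Tem1lacZ/lacZ sham and Tem1lacZ/lacZ with traction. Tem1, listed as Cd248, encodes a membrane protein of stromal cells. Tem1lacZ/lacZ mice (C57BL/6J background) carry lacZ in its place on both alleles and in all cells. Library titles number the scars within a group and give no date or batch. The p-values set differences between groups against the spread between these scars, and the part of any batch in either is not known.

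AP-1 is a dimer. Fos proteins cannot pair with themselves and bind DNA together with a Jun protein, whereas Jun proteins can also pair with each other, and Atf3, Batf and related zipper proteins join in further combinations. Fos, Fosb, Jun, Junb, Atf3 and Egr1 are classical immediate early genes, switched on within minutes by growth factors, stretch, injury or tissue handling and silenced soon after, while Fosl1 and Fosl2 follow later and last longer. In skin, AP-1 acts in keratinocyte differentiation, wound repair, inflammation and fibrosis, and its targets include matrix metalloproteinases.

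The libraries held 41536788 to 64644293 counts. Levels are given as CPM, counts scaled to library size with TMM factors, and changes as log2 fold changes from edgeR's quasi-likelihood test, called at a Benjamini-Hochberg adjusted p under 0.05 over the 18853 genes. Cd248 lay between 92.4 and 337 CPM in the 6 Tem1WT/WT libraries and at no more than 0.248 CPM in the 6 Tem1lacZ/lacZ libraries, as labelled. Markers of fibroblasts and keratinocytes were above 0 in every library. In bulk scars a lower level of a gene in each cell and fewer of the cells that make it cannot be told apart. Several libraries stood apart in cell markers. The 12 neutrophil markers summed to 8393 CPM in Tem1WT/WT traction replicate 1, to 333 and 676 CPM in the other traction scars of that genotype, and to 73.8 to 563 CPM in the remaining 9 libraries. Of these, Csf3r and Cxcr2 were above 0 in all 12 libraries, while Ngp, Camp and Ltf were at 0 in 1 or 2 of them. The T and B lymphocyte markers were also highest there, at 120 CPM against 22.8 to 56.3 CPM in the other 11 libraries. Keratinocyte markers were highest in Tem1lacZ/lacZ traction replicate 1, at 58726 CPM against 16254 to 32688 CPM elsewhere, adipocyte markers in Tem1lacZ/lacZ sham replicate 1 (7020 CPM) and skeletal muscle markers in Tem1WT/WT sham replicate 1 (17294 CPM). Results are also given without Tem1WT/WT traction replicate 1, and the part of these cells in them was not tested.

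The proximal promoters of 4 members are shown. Fos and Fosb moved together from scar to scar, and Fosl2 rose with traction in Tem1WT/WT scars. Jun was picked for its sequence, as it carries an AP-1-like site in its own promoter. Each window runs from 250 bases before to 50 bases after the RefSeq start (GRCm38.p6), 5′ to 3′ on the gene's strand. Capitals mark TGACG (the core of the cyclic AMP response element, CRE) and GCGTGGGCG or GCGGGGGCG (Egr sites) on either strand, TATAAA on the gene's strand, and TGACATCA in Jun.
Fos, chr12:85473640-85473939, plus strand: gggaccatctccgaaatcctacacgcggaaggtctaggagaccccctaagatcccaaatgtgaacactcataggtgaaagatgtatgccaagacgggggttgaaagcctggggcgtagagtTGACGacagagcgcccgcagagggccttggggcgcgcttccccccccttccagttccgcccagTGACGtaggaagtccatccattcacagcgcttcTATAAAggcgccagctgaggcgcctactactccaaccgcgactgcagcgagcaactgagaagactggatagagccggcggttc
Fosb, chr7:19309996-19310295, minus strand: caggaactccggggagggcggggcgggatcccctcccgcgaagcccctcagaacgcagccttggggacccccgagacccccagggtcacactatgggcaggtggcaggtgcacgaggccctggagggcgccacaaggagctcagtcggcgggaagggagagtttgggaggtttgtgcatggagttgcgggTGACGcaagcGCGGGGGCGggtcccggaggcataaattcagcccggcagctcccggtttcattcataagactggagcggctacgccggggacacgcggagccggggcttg
Fosl2, chr5:32136222-32136521, plus strand: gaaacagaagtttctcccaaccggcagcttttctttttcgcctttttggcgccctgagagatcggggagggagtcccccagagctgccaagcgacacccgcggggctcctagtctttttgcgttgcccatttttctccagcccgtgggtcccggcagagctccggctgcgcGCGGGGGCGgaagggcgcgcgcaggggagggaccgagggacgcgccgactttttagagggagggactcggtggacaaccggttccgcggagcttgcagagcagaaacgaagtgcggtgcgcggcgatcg
Jun, chr4:95052173-95052472, minus strand: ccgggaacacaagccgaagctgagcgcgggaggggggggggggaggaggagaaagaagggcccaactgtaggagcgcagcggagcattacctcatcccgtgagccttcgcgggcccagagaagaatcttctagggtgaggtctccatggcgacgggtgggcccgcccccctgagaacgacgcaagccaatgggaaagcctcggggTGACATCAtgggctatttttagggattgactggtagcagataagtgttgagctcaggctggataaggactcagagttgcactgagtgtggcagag

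In Fos, TGACG began 129 and 66 bases before the start and TATAAA 33 bases before it. Fosb held TGACG 60 bases and GCGGGGGCG 50 bases before its start, and Fosl2 held GCGGGGGCG 79 bases before its start. TGACATCA began 45 bases before the Jun start, and 3.62% of all windows held it on either strand. Promoter windows were matched for 8 of the 10 members, with none for Fosl1 and Egr1. TGACG was held on either strand by 5 of the 8 (Fos, Fosb, Junb, Batf and Atf3), against 20.8% of all 32851 windows of that length. An Egr site was in 2 of the 8, against 3.47% of all windows, and TATAAA in 2 of the 8, against 8.32%. The canonical AP-1 site TGAGTCA was in none of the 8 and in 5.2% of all windows. The full CRE, TGACGTCA, was also in none of the 8, against 1.79% of all windows, as was the CArG box (the SRF site), against 1.63%. These matches are letters in a window and no measure of binding. Sites further than 250 bases before the start were not searched. The Jund window was set by the RefSeq start at base 70697739, whereas GENCODE vM21 starts the gene at 70698949.

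With traction in Tem1WT/WT scars, Fosl1 and Fosl2 rose, and these were the called members of the 10. All 10 fold changes were positive, with a median log2 fold change of 0.92 against -0.01 over all genes, where 49.4% were positive. With Tem1WT/WT traction replicate 1 left out, 8 of 10 were positive and the median was 0.28, and 360 of 19388 genes (1.86%) were called, 279 of them higher. Calls upward made up 5.61% of all genes, against 2 of 10 members. An unadjusted p under 0.05 with a higher level was found for 6 members and for 16.7% of all genes, and levels without overlap between the groups, higher with traction, for 4 members and for 17.7% of all genes. Since the members share libraries and regulators, the 10 signs are not 10 independent results. Of the 1725 genes called, 1057 were higher, and under upper quartile scaling 734 of 1673 were.

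Fosl1 encodes Fra-1, a Fos protein without the strong activation domain of Fos, known in migrating and injured epithelium. It was at 0.41, 0.51 and 1.00 CPM in Tem1WT/WT sham scars and at 8.42, 3.14 and 3.29 CPM with traction. Its Tem1lacZ/lacZ levels were 0.74, 0.33 and 0.40 CPM in sham and 0.47, 0.25 and 0.30 CPM with traction. All 3 stretched Tem1WT/WT scars lay above each of the other 9 libraries. Traction raised Fosl1 in Tem1WT/WT scars by 2.94 on the log2 scale (SE 0.53, 95% interval 1.78 to 4.10, edgeR adjusted p = 0.0252), a 7.68-fold change. Fosl1 had 13 to 354 counts per library, and was the least abundant member per kilobase in the mean of every group. Without Tem1WT/WT traction replicate 1 the change was 2.30 (adjusted p = 0.0441). It lost the call without Tem1WT/WT sham replicate 1 (adjusted p = 0.117) or replicate 2 (adjusted p = 0.0894), with changes of 2.71 and 2.81, and no gene of the table was called in either case.

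Fosl1 lies at chr19:5447698-5455938 on the plus strand (GRCm38). Of its transcript of 1864 bases, 1163 lie inside Ccdc85b on the opposite strand (GENCODE vM21). The libraries came from a stranded kit, but the strand setting of the counting is not given in the sources used here. Ccdc85b was at 19.8 ± 0.907 CPM in Tem1WT/WT sham, 25.6 ± 4.36 with traction, 18.4 ± 3.47 in Tem1lacZ/lacZ sham and 22.9 ± 0.265 with traction (mean ± SD, n = 3 each). The part of reads from Ccdc85b in the Fosl1 counts was not tested.

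Fosl2, at chr5:32136472-32157840 on the plus strand, encodes Fra-2, a Fos protein known from fibrosis of skin and lung. It was at 119, 148 and 148 CPM in Tem1WT/WT sham scars and at 518, 252 and 302 CPM with traction. Tem1lacZ/lacZ levels were 118, 99.0 and 98.2 CPM in sham and 106, 172 and 132 CPM with traction. The stretched Tem1WT/WT scars again lay above all other libraries, with replicate 1 the highest. Traction raised Fosl2 in Tem1WT/WT scars by 1.37 on the log2 scale (SE 0.27, 95% interval 0.78 to 1.96, edgeR adjusted p = 0.0278), a 2.58-fold change. The change was 0.98 (adjusted p = 0.0484) without traction replicate 1. The call was lost without Tem1WT/WT sham replicate 1 (1.27, adjusted p = 0.122), sham replicate 2 (1.44, adjusted p = 0.0894) or Tem1lacZ/lacZ sham replicate 3 (1.37, adjusted p = 0.0512).

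Fos, the founding member of the family, behaved otherwise. It was at 79.5, 21.3 and 97.0 CPM in Tem1WT/WT sham scars and at 66.7, 108 and 36.8 CPM with traction. The Tem1lacZ/lacZ libraries held 83.2, 32.7 and 88.0 CPM in sham and 16.2, 43.3 and 29.98 CPM with traction. The range within each Tem1WT/WT group covered most of the other, and the log2 fold change was 0.10 (SE 0.59, adjusted p = 0.930). In Tem1lacZ/lacZ scars it was -1.19 (SE 0.60, 95% interval -2.51 to 0.13, adjusted p = 0.626), with overlapping groups.

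Fosb, a close relative of Fos, is known from neurons, bone and other stimulated tissue. Its levels were 16.4, 4.31 and 19.4 CPM in Tem1WT/WT sham and 8.09, 24.8 and 7.52 CPM with traction. Those of Tem1lacZ/lacZ scars were 16.5, 5.31 and 15.9 CPM in sham and 1.21, 6.58 and 3.79 CPM with traction. The log2 fold change was 0.01 (SE 0.72, adjusted p = 0.994) in Tem1WT/WT scars. In Tem1lacZ/lacZ scars it was -1.70 (SE 0.75, 95% interval -3.34 to -0.05, unadjusted p = 0.0441, edgeR adjusted p = 0.601), which did not pass.

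Fos and Fosb varied widely within every group. The coefficient of variation of Fos was 60.1%, 50.7%, 45.0% and 45.4% in the 4 groups (Tem1WT/WT sham, Tem1WT/WT traction, Tem1lacZ/lacZ sham, Tem1lacZ/lacZ traction), and that of Fosb 59.8%, 72.8%, 50.03% and 69.6%. The median over all 18853 genes was 16.7%, 25.2%, 18.0% and 22.5%. Among stretched Tem1WT/WT scars Junb (108%), Atf3 (101%), Egr1 (86.0%) and Batf (83.1%) varied more than either. The Pearson r of Fos with Fosb over the 12 libraries was 0.96 on log2 CPM, and 0.95 after each group's mean was taken off. This is a description of 12 points that share library preparation and dissection, with no test.

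**Figure D1:**
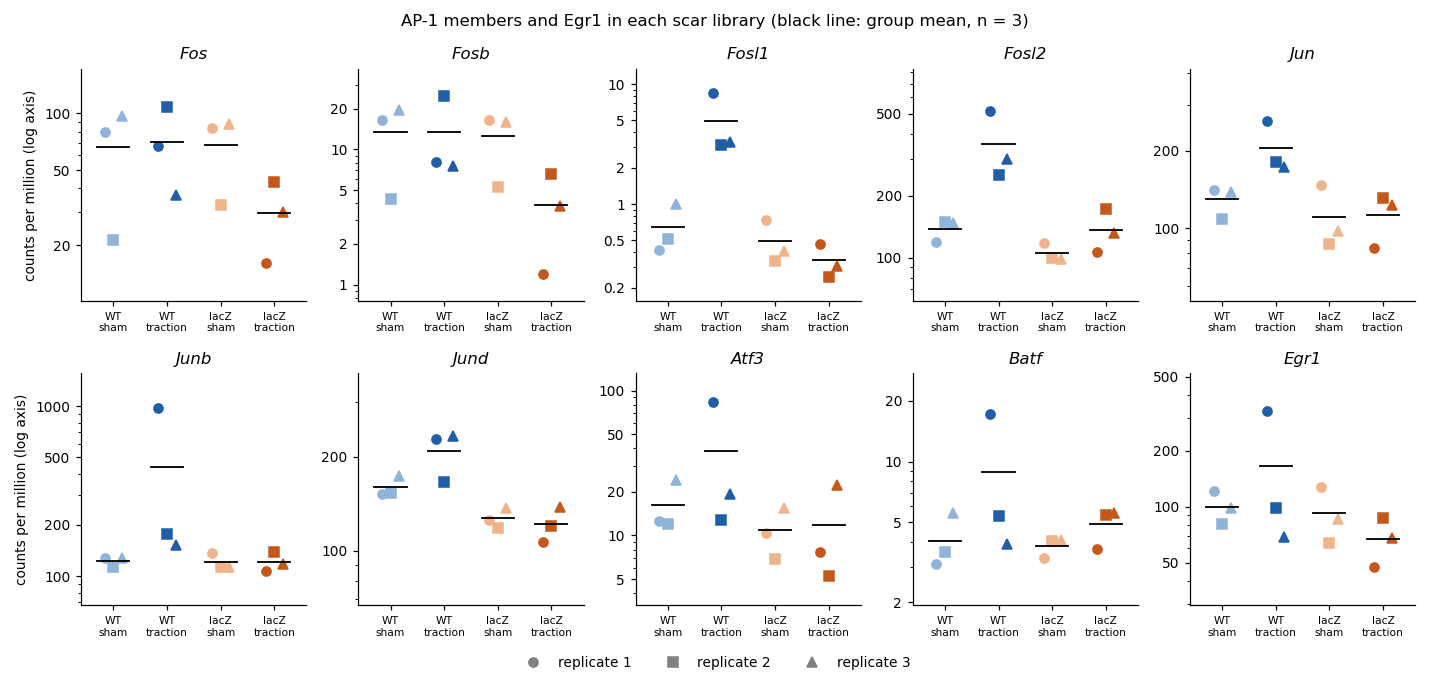
Level of each of the 10 members in each scar library, in CPM on a log axis, by group, with symbols for the replicate number and a black line at the group mean (n = 3). Fosl1 and Fosl2 are higher in all 3 stretched Tem1WT/WT scars than in any other library, Junb reaches 982 CPM in 1 of them, and Fos and Fosb spread widely within every group.

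Among the Jun proteins, Jun, the main transactivating partner of Fos, was at 141, 108 and 139 CPM in Tem1WT/WT sham scars and at 260, 180.5 and 173 CPM with traction. Scars of Tem1lacZ/lacZ mice held 147, 87.3 and 97.6 CPM in sham and 83.7, 131 and 123 CPM with traction. The Tem1WT/WT groups did not overlap, yet the log2 fold change of 0.66 (SE 0.25, unadjusted p = 0.0233) had an edgeR adjusted p of 0.103. The Tem1lacZ/lacZ groups overlapped, with a change of 0.03 (SE 0.25, adjusted p = 0.985).

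Junb, a weaker activator known to restrain Jun and to act in epidermis and myeloid cells, was at 128, 113 and 128 CPM in Tem1WT/WT sham and at 982, 177 and 153 CPM with traction. Its levels in Tem1lacZ/lacZ mice were 137, 114 and 113 CPM in sham and 107, 138 and 118 CPM with traction. Replicate 1 of the stretched Tem1WT/WT scars, the library with the high neutrophil markers, held more than any other library by a wide margin. The log2 fold change with traction in Tem1WT/WT scars was 1.83 (SE 0.58, edgeR adjusted p = 0.0651) and 0.41 (adjusted p = 0.155) without that library. Without traction replicate 2 or 3 it was 2.22 (adjusted p = 0.0267) and 2.25 (adjusted p = 0.0448), with 2861 and 704 genes called in all. In Tem1lacZ/lacZ scars it was 0.00 (SE 0.56, 95% interval -1.23 to 1.23, adjusted p = 1.00), an interval wide enough to hold a doubling.

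Jund, the most steadily expressed Jun protein, was at 152, 154 and 173 CPM in Tem1WT/WT sham and at 228, 166 and 233 CPM with traction. Its Tem1lacZ/lacZ levels were 126, 118 and 137 CPM in sham and 107, 120 and 138 CPM with traction. All 6 Tem1lacZ/lacZ libraries lay below all 6 Tem1WT/WT libraries. With traction the log2 fold change was 0.39 (SE 0.16, adjusted p = 0.130) in Tem1WT/WT and -0.06 (SE 0.16, adjusted p = 0.933) in Tem1lacZ/lacZ scars. Of its transcript of 1668 bases, 919 lie inside the antisense gene Gm11175, and 689 of the 3189 bases of Jun lie inside the antisense gene Junos. Gm11175 was not among the genes listed. Junos was at 3.59 ± 0.278 CPM in Tem1WT/WT sham, 7.93 ± 3.95 with traction, 3.86 ± 0.112 in Tem1lacZ/lacZ sham and 2.93 ± 0.692 with traction (mean ± SD, n = 3 each). The part of antisense reads in the Jun and Jund counts was not tested.

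Atf3, a stress-induced factor that represses many inflammatory genes, was at 12.6, 11.9 and 24.1 CPM in Tem1WT/WT sham and at 82.9, 12.8 and 19.3 CPM with traction. The Tem1lacZ/lacZ levels were 10.4, 6.93 and 15.5 CPM in sham and 7.69, 5.26 and 22.3 CPM with traction. One stretched Tem1WT/WT scar, replicate 1, stood out from overlapping groups. The log2 fold change in Tem1WT/WT scars was 1.24 (SE 0.72, adjusted p = 0.259), and -0.04 without that library.

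Batf, a factor of T cells and other leukocytes that pairs with Jun proteins, was at 3.08, 3.54 and 5.52 CPM in Tem1WT/WT sham and at 17.2, 5.34 and 3.88 CPM with traction. The Tem1lacZ/lacZ libraries held 3.31, 4.01 and 4.08 CPM in sham and 3.67, 5.42 and 5.52 CPM with traction. Apart from replicate 1 of the stretched Tem1WT/WT scars the libraries lay close together. The change in Tem1WT/WT scars was 1.12 (SE 0.48, adjusted p = 0.139), and 0.17 without that library.

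Egr1, which binds GC-rich promoters of growth and matrix genes, was at 121, 80.9 and 98.2 CPM in Tem1WT/WT sham and at 328, 98.6 and 68.4 CPM with traction. Scars of Tem1lacZ/lacZ mice held 127, 63.6 and 86.2 CPM in sham and 47.2, 86.5 and 67.5 CPM with traction. Replicate 1 was again the highest, and the other stretched scars lay within or below the sham range. The log2 fold change in Tem1WT/WT scars was 0.72 (SE 0.51, adjusted p = 0.353), and -0.28 without that library.

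With traction in Tem1lacZ/lacZ scars, no member passed: 0 of 10 were called by edgeR, 1 had an unadjusted p under 0.05 (Fosb), and all 10 pairs of groups overlapped. Of all genes 0% were called and 8.12% had an unadjusted p under 0.05, the smallest adjusted p being 0.598. Other fits called 28 genes (DESeq2), 435 (limma-voom with sample weights) and 73 (edgeR without Tem1lacZ/lacZ traction replicate 1). DESeq2 called none of the 9 members to which it gave an adjusted p, Junb having none. The members' median log2 fold change was -0.03, with 4 values above 0 and 6 below. The 95% intervals were narrowest for Jund (-0.42 to 0.29), Jun (-0.52 to 0.57) and Fosl2 (-0.20 to 0.95), and wider for the other 7 members.

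**Figure D2:**
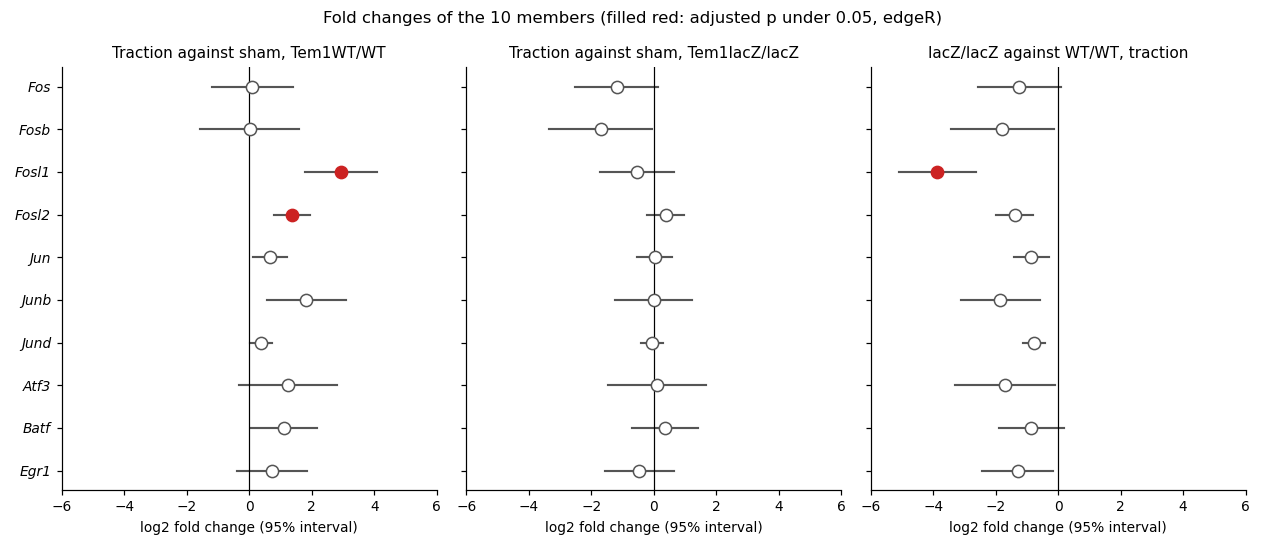
Log2 fold change with its 95% interval (edgeR) for each member, for traction against sham in each genotype and for Tem1lacZ/lacZ against Tem1WT/WT with traction. Filled red points passed an adjusted p of 0.05: Fosl1 (2.94) and Fosl2 (1.37) with traction in Tem1WT/WT, and Fosl1 (-3.87) between the genotypes.

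Between genotypes under traction, Fosl1 was lower in Tem1lacZ/lacZ scars by -3.87 on the log2 scale (SE 0.56, 95% interval -5.10 to -2.64, edgeR adjusted p = 0.0335). It was the 1 member called, where 0.0955% of all genes were called lower. All 10 members had lower levels, as did 49% of all genes, and their median log2 fold change was -1.34 against 0.01 over all genes. The count was 9 of 10 and the median -0.65 without Tem1WT/WT traction replicate 1. An unadjusted p under 0.05 with a lower level was found for 8 members and 15.1% of all genes. The groups did not overlap for Fosb, Fosl1, Fosl2, Jun, Junb and Jund, all lower in Tem1lacZ/lacZ scars, and 13.7% of all genes had that pattern. This comparison uses the same stretched Tem1WT/WT libraries as the one with sham, so the results are not independent.

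The other differences under traction did not pass edgeR's test. Fosl2 was at -1.39 (SE 0.27, adjusted p = 0.0829), Jund at -0.78 (SE 0.16, adjusted p = 0.0834), Jun at -0.86 (SE 0.25, adjusted p = 0.0971) and Junb at -1.85 (SE 0.58, adjusted p = 0.104). Fosb was at -1.80, Atf3 at -1.70, Egr1 at -1.30, Fos at -1.24 and Batf at -0.86, with adjusted p from 0.149 to 0.278. Jund had the smallest standard error of the 10, and an unadjusted p of 0.000531. DESeq2 called Fosl2 (adjusted p = 0.000330), Jund (0.000926) and Jun (0.0244) lower here beside Fosl1, with 2334 of 18853 genes called against 20 by edgeR, and gave Junb no adjusted p.

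The Fosl1 difference between genotypes depended on which libraries were kept. Without Tem1WT/WT traction replicate 1 it was -3.22 with an adjusted p of 0.0510. The call was also lost without Tem1WT/WT sham replicate 2 (0.0650), Tem1lacZ/lacZ sham replicate 2 (0.0605) or 3 (0.0737), or Tem1lacZ/lacZ traction replicate 1 (0.178), 2 (0.107) or 3 (0.142), in adjusted p, while the change itself stayed between -4.13 and -3.22. Without Tem1WT/WT traction replicate 1, Batf was at 0.11, Junb at -0.41, Atf3 at -0.40 and Egr1 at -0.28, none of them called. Without Tem1WT/WT traction replicate 2, 4 members were called in this comparison (Fosl1, Fosl2, Junb and Jund) and 4 in traction against sham in Tem1WT/WT (the same 4), while the calls over all 19400 genes tested then came to 1421 and 2861.

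In sham scars no difference between the genotypes passed: 0 of 10 members were called, and 0 had an unadjusted p under 0.05, against 0.0106% and 11.7% of all genes. DESeq2 called none of the 8 members to which it gave an adjusted p, Junb and Fosl1 having none. Fosl2 (log2 fold change -0.40, SE 0.26, adjusted p = 0.553) and Jund (-0.33, SE 0.16, adjusted p = 0.443) were lower in Tem1lacZ/lacZ scars without overlap, a pattern seen in 13.8% of all genes. The median over the 10 members was -0.17.

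Whether traction acted differently in the genotypes was tested by the interaction. It was below 0 for all 10 members, with a median of -1.16 and 50.2% of all genes below 0. It was below 0 for 8 members without Tem1WT/WT traction replicate 1, with a median of -0.37. The edgeR test called 0 members and 0% of all genes. An unadjusted p under 0.05 on the lower side was found for Fosl1 (-3.48, SE 0.75), Fosl2 (-0.99, SE 0.37) and Junb (-1.83, SE 0.79), against 4.46% of all genes. Each had an edgeR adjusted p of 0.548. DESeq2 gave Fosl1 an interaction of -3.50 with an adjusted p of 0.00762, so this call depends on the tool. DESeq2 called 69 of all 18853 genes in the interaction. Over 20 alternatives the adjusted p of that interaction ran from 0.00762 to 0.825.

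The make-up of each family was compared per length, as CPM divided by the length of the longest protein-coding transcript (GENCODE vM21). These lengths include bases shared with genes on the opposite strand: 62.4% of the Fosl1 transcript, 55.1% of that of Jund and 21.6% of that of Jun. The effect of the shared bases on ranks and shares was not tested. On that scale the mean levels in Tem1WT/WT sham scars ran, in CPM per kilobase, from Jund (95.8) through Junb (68.0), Jun (40.6), Fos (31.3), Egr1 (22.3), Fosl2 (21.1), Atf3 (8.17), Batf (4.24) and Fosb (3.53) to Fosl1 (0.343). With traction in that genotype Fosl2 was at 54.7, above Egr1 at 36.8 and Fos at 33.4, and Fosl1 was at 2.65, still last. Ranges of neighbours overlapped in sham from Jun to Fosl2 and between Batf and Fosb, and with traction those of Fosl2, Egr1 and Fos overlapped. In Tem1WT/WT sham scars Fos made up 51.3% ± 18.8 of the Fos family sum (SD, n = 3), Fosl2 42.3% ± 20.8, Fosb 5.80% ± 2.14 and Fosl1 0.628% ± 0.230. With traction the Tem1WT/WT shares were 35.0% ± 14.9 for Fos, 58.4% ± 16.5 for Fosl2, 3.82% ± 2.54 for Fosb and 2.73% ± 1.07 for Fosl1. The Fosl1 shares of the Tem1WT/WT groups did not overlap, whereas those of Fos, Fosl2 and Fosb did. In stretched Tem1lacZ/lacZ scars Fosl2 also held the larger share, 59.0% ± 6.46, and Fos 37.9% ± 5.71, from 33.5% ± 11.8 and 59.9% ± 10.5 in sham, and neither share overlapped between the Tem1lacZ/lacZ groups. The summed level differed, at 67.4 to 118 CPM per kilobase in stretched Tem1WT/WT scars and 24.5 to 48.6 in stretched Tem1lacZ/lacZ scars, whose ranges do not overlap.

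Fosl1 remained the smallest share of the Fos family in stretched Tem1WT/WT scars apart from replicate 1, where it passed Fosb. Jund was the largest of the Jun family in Tem1WT/WT sham scars, at 46.9% ± 2.41, before Junb at 33.3% ± 0.964 and Jun at 19.8% ± 1.68. In Tem1lacZ/lacZ scars the Jund share was 43.0% ± 4.41 in sham and 41.7% ± 3.29 with traction. The stretched Tem1WT/WT scars ranged from 30.4% to 71.3% in the Junb share, the highest again in replicate 1.

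**Figure D3:**
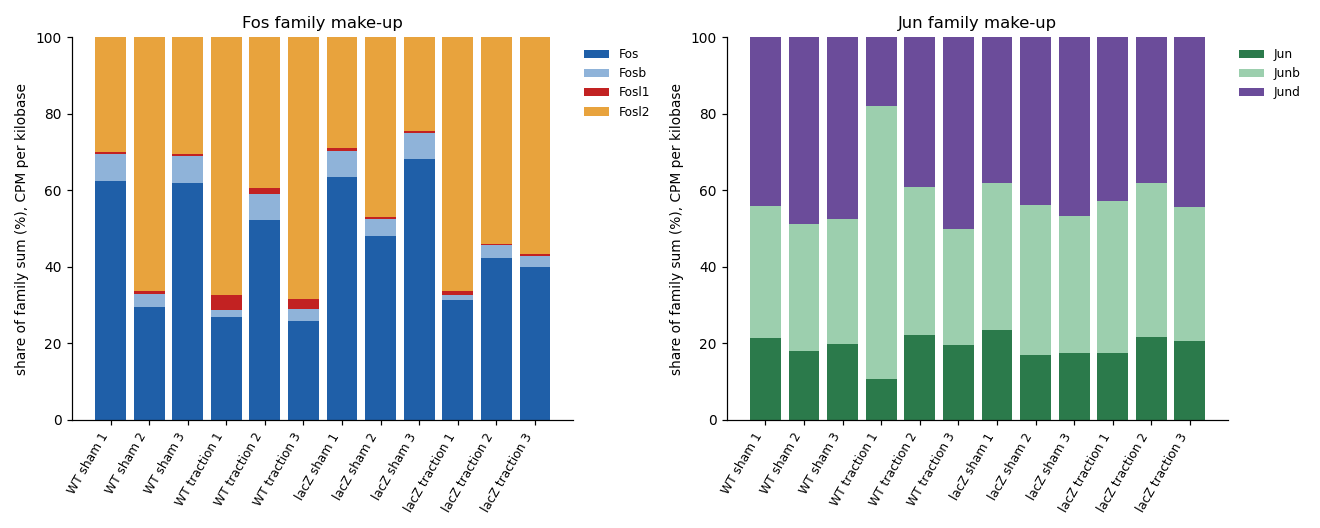
Share of each member in the summed level of its family (CPM per kilobase, %) in each of the 12 libraries. Fosl2 has the larger share in stretched scars of both genotypes on average (58.4% and 59.0%), Fosl1 reaches 3.84% at most, and Junb makes up 71.3% of the Jun family in Tem1WT/WT traction replicate 1.

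Other likenesses between members were weaker than that of Fos and Fosb. Pearson r of log2 CPM over the 12 libraries was 0.89 for Fosl1 with Fosl2, 0.90 for Junb with Batf, 0.86 for Junb with Egr1, 0.88 for Fosl2 with Jun and 0.84 for Fosl1 with Jund. Fos had an r of 0.34 with Fosl1 and 0.19 with Fosl2. Once each group's mean was taken off, Fosl1 with Fosl2 was at 0.52, and Junb with Egr1 at 0.91. The points share groups and libraries, and Tem1WT/WT traction replicate 1 is the highest point for Fosl1, Fosl2, Jun, Junb, Atf3, Batf and Egr1.

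Of 13637 genes outside the members, those nearest to Fosl1 were Pvr (r = 0.97), a nectin-like adhesion receptor, Cxcl1 (0.94), a neutrophil chemokine, and Tirap (0.94), an adaptor of Toll-like receptors. Fosl2 was closest to the kinase gene Map4k4 (0.99), Depdc5 (0.98) and the protease gene Furin (0.98). Junb was closest to Mxd1 (0.99), Gsap (0.98) and the kinase gene Pim1 (0.98), and Batf to Fpr2 (0.96), a formyl peptide receptor of myeloid cells, Fcgr4 (0.95) and Slfn4 (0.95). Jun was closest to Plekha2 (0.96), Flii (0.96) and Map3k14 (0.96), Jund to Trak2 (0.96), Nbl1 (0.95) and Triobp (0.95), and Egr1 to Irak3 (0.96), Btg2 (0.94) and H2-K2 (0.94). Atf3 was closest to the interferon-induced genes Oasl2 (0.97), Trim30a (0.96) and Sp100 (0.96). Fos and Fosb had less close neighbours: Gabra3 (0.85), Dcn (0.82) and Cysltr1 (0.81) for Fos, and Gabra3 (0.93), Slc43a3 (0.78) and Gfpt2 (0.78) for Fosb. Each r was taken over all 12 libraries, Tem1WT/WT traction replicate 1 included.

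**Figure D4:**
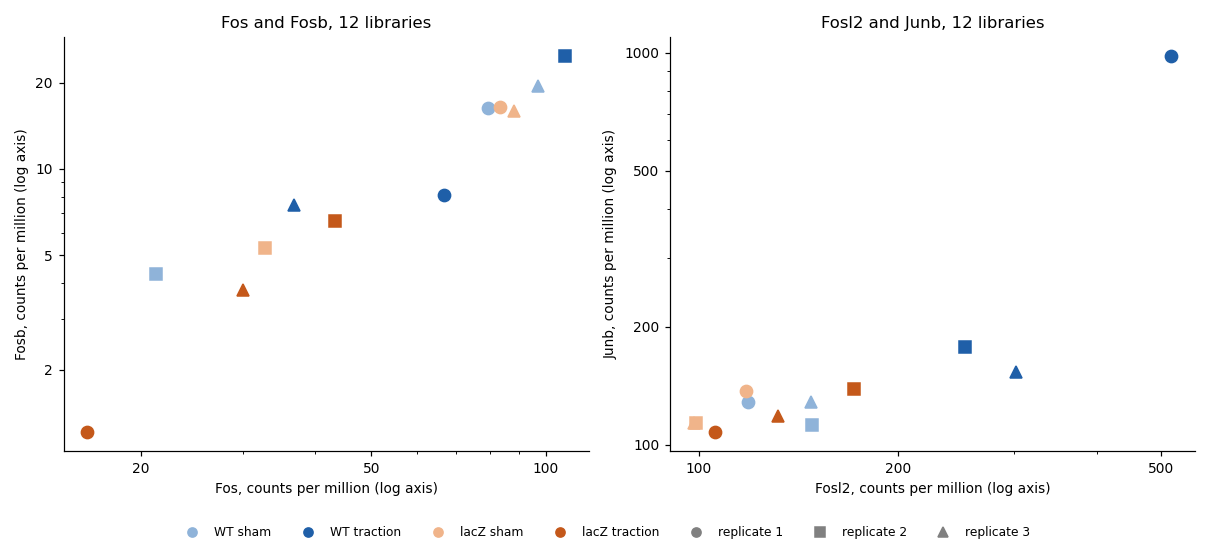
Left, Fosb against Fos; right, Junb against Fosl2, in CPM on log axes over the 12 libraries, coloured by group. Fos and Fosb rise along one line in which the groups mix (r = 0.96), while Fosl2 separates the stretched Tem1WT/WT scars (252 to 518 CPM) from the rest and Junb sets 1 of them apart at 982 CPM.

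Short-lived messages often carry AU-rich elements after the stop codon, and ATTTA is their unit. The repeat in Fos shows the kind of site, with ATTTA in capitals (30 bases of the longest protein-coding transcript, GENCODE vM21, bases 642 to 671 after the stop codon).
Fos: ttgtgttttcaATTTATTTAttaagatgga
Fosl1: aagggcagctgctATTTAttttcctaaaga
The Fosl1 stretch, bases 558 to 587 after its stop codon, held the unit once. TATTTAT was found in 7 of the 10 members and in 28% of 20534 protein-coding genes with at least 50 bases after the stop codon. Fos had 4 ATTTA units in 815 bases, 4.91 per kilobase, Junb 2 in 485 bases (4.12 per kilobase) and Jun 4 in 1233 bases (3.24 per kilobase), against a median of 1.27 per kilobase over all genes. Fosb had 1 unit in 2145 bases (0.466 per kilobase) and Batf none in 335 bases.

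Partners of AP-1 outside the members were counted next. With traction in Tem1WT/WT scars, of 22 leucine zipper and CRE-binding genes, 5 rose and 0 fell and 17 did not pass, with a median log2 fold change of 0.41, where 5.61% of all genes were called higher. Nfil3, a repressor of the zipper class, rose by 2.03 (SE 0.55, edgeR adjusted p = 0.0464), and Jdp2, a repressing partner of Jun, by 1.81 (SE 0.36, adjusted p = 0.0281). Bach1, a heme-regulated repressor, rose by 0.57 (adjusted p = 0.0429). Jdp2 was at 18.1, 24.0 and 27.1 CPM in sham and at 135, 47.7 and 60.2 CPM with traction. Without Tem1WT/WT traction replicate 1, 1 of the 22 rose, Jdp2 by 1.205 (adjusted p = 0.0441), and the median was 0.17, where calls over all genes came to 360 in place of 1725.

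Of 34 other immediate early genes tested, 7 rose and 2 fell in Tem1WT/WT scars, with a median of 0.76, where 1057 of the 1725 genes called over the whole table were higher. The largest changes among the called genes were those of Socs3, a brake on cytokine signalling (3.66, SE 0.84, adjusted p = 0.0333), Csrnp1 (3.54, adjusted p = 0.0438), the stress gene Gadd45b (2.86, adjusted p = 0.0406) and Ier3 (2.21, adjusted p = 0.0431). The 2 that fell, picked here after their values were seen, were Egr2 (-1.19, adjusted p = 0.0338) and Klf4 (-0.53, adjusted p = 0.0492). Socs3 was at 26.9, 27.2 and 44.4 CPM in sham and at 1031, 131 and 79.3 CPM with traction. Without Tem1WT/WT traction replicate 1 the count was 1 of 34, Cyr61 (1.90, adjusted p = 0.0458), which encodes a matricellular protein, and the median was 0.27. Over all genes 360 of 19388 were then called, 279 of them higher.

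Upstream of the members, 2 of 22 genes of SRF, its ternary complex factors, the MRTFs and the MAP kinases rose and 0 fell in Tem1WT/WT scars, with a median of 0.37, where 5.61% of all genes were called higher. Without traction replicate 1 the count was 1 of 22, where 279 of all 19388 genes tested rose. Elk3, a ternary complex factor, was at 31.0, 39.1 and 46.4 CPM in sham and at 116, 88.7 and 101 CPM with traction. It rose by 1.39 (SE 0.22, adjusted p = 0.0239), and by 1.27 (adjusted p = 0.0433) without traction replicate 1. Map2k1, the kinase gene of MEK1, rose by 0.85 (adjusted p = 0.0433), a call lost without that library.

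Of 30 genes with known AP-1 sites, 14 rose and 0 fell with traction in Tem1WT/WT scars, with a median of 2.05, where 5.61% of all genes were called higher. Like the lists above, this list was chosen with earlier results of these data known. The share of all genes is thus no independent reference. The largest rises among the called genes were those of Mmp10 (7.10, SE 1.66, adjusted p = 0.0348), Mmp13 (5.19, SE 1.06, adjusted p = 0.0300), Ptgs2, the inducible prostaglandin synthase (4.92, SE 1.16, adjusted p = 0.0349), and Mmp9 (4.17, SE 0.71, adjusted p = 0.0252). Mmp13, an interstitial collagenase, was at 14.5, 11.2 and 35.2 CPM in sham and at 1929, 154 and 138 CPM with traction. Mmp10 was at 1.04, 0.261 and 1.29 CPM in sham and at 341, 1.90 and 10.5 CPM with traction, so a single scar carries most of its level. Mmp9 is also a granule protein of neutrophils, and replicate 1 with the high neutrophil markers held 757 CPM against 141 and 150 CPM in the other stretched scars. Without that library 4 of the 30 rose, among them Mmp9 (2.89, adjusted p = 0.0344), Mmp13 (2.83, adjusted p = 0.0433) and Hmox1 (2.18, adjusted p = 0.0344), and the median was 1.21, where 279 of all 19388 genes tested rose.

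With traction in Tem1lacZ/lacZ scars 0 genes of each of these 4 lists were called by edgeR, with medians of -0.01, -0.04, 0.18 and 0.20 in the order given. An unadjusted p under 0.05 was found there for 2 of 22 partners, 4 of 34 immediate early genes, 5 of 22 upstream genes and 4 of 30 genes with AP-1 sites, against 8.12% of all genes. Among the changes furthest from 0, none called, were those of Arc (-0.83) and Egr2 (-0.76), Rps6ka1 (0.66) and Elk3 (0.64), and Cxcl2 (2.22) and Mmp10 (-2.10).

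Between genotypes with traction the list medians were -0.47, -0.85, -0.35 and -1.61, again with 0 genes called. They were -0.31, -0.50, -0.29 and -0.80 without Tem1WT/WT traction replicate 1. Unadjusted p-values were under 0.05 for 13 of 22, 26 of 34, 10 of 22 and 22 of 30 genes of the lists, and for 4930 of all 18853 genes. Of the 30 genes with AP-1 sites, 15 were lower in Tem1lacZ/lacZ scars without overlap, against 13.7% of all genes. The genes furthest from 0 in each list were picked at a mean log2 CPM of at least 1. They were Nfil3 (-2.17) and Maff (-1.76), then Csrnp1 (-3.79) and the orphan nuclear receptor Nr4a3 (-3.25). Elk3 (-0.88) and Map2k1 (-0.77), and Mmp10 (-7.82) and Cxcl2 (-5.08), followed. The edgeR adjusted p of these genes ran from 0.0845 to 0.149. Each was highest in Tem1WT/WT traction replicate 1. Csrnp1 was at 392, 17.2 and 32.2 CPM in stretched Tem1WT/WT and 7.34, 10.8 and 13.7 CPM in stretched Tem1lacZ/lacZ scars. Maff was at 112, 12.9 and 20.01 CPM against 15.4, 12.5 and 14.9 CPM. Elk3 was at 116, 88.7 and 101 CPM against 44.5, 63.3 and 58.9 CPM.

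Between genotypes in sham 0 genes of the 4 lists were called, with 3 of 22, 5 of 34, 8 of 22 and 0 of 30 at an unadjusted p under 0.05, against 11.7% of all genes. Maf (-0.95), Nr4a3 (-1.06), Nr4a1 (-0.66), Mkl1 (-0.58), Elk4 (-0.57), Mmp10 (1.37) and Mmp12 (-1.03) were among those furthest from 0. In the interaction 0 were called as well, with 8, 11, 2 and 17 at an unadjusted p under 0.05, against 1680 of all 18853 genes. There Nfil3 (-1.84), Maff (-1.79), Csrnp1 (-3.37), Socs3 (-3.29), Map2k1 (-1.01), Elk3 (-0.75), Mmp10 (-9.20) and Ptgs2 (-5.10) were furthest from 0 at a mean log2 CPM of at least 1. Each of these genes was highest in Tem1WT/WT traction replicate 1. The interaction medians of the 4 lists were -0.37, -0.68, -0.071 and -1.85. Without Tem1WT/WT traction replicate 1 they were -0.065, -0.17, -0.0098 and -1.15, again with 0 genes called. The lists were not counted with another tool.

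**Figure D5:**
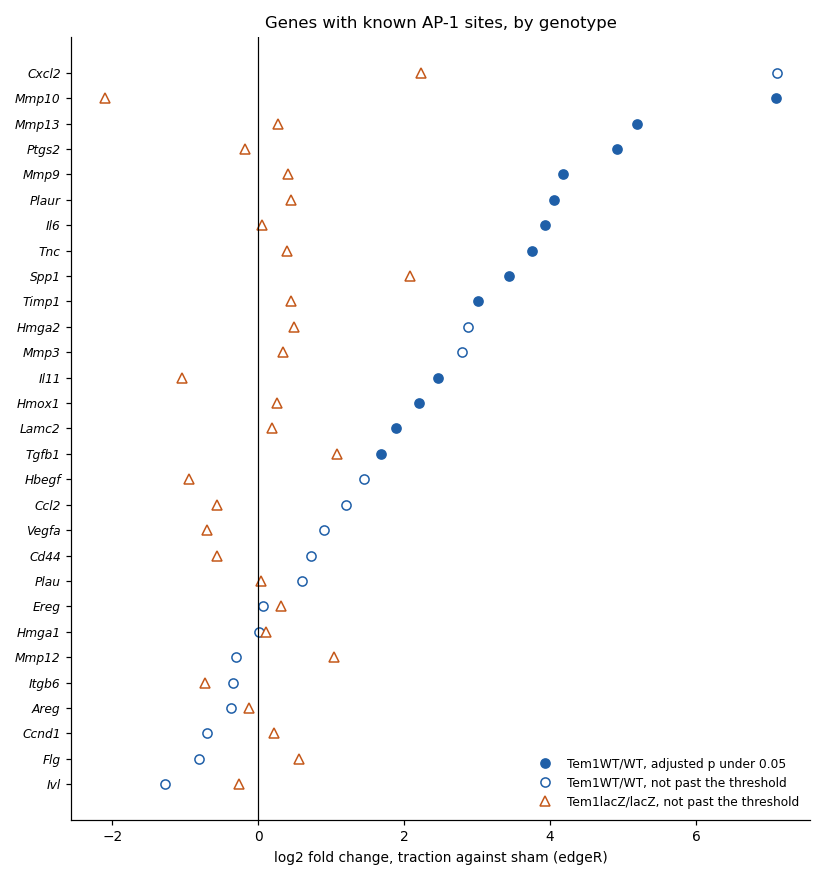
Log2 fold change with traction (edgeR) for 29 of the 30 genes with known AP-1 sites, circles for Tem1WT/WT and triangles for Tem1lacZ/lacZ scars. Filled circles mark the 13 of these genes with an adjusted p under 0.05, and no triangle passed; Mmp10 is at 7.10 in Tem1WT/WT and at -2.10 in Tem1lacZ/lacZ scars.

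Immediate early genes respond to handling and to the hour of collection, so 2 further lists were read beside them. Of 14 heat shock genes, Bag3 rose (0.64, adjusted p = 0.0444) and Hspb8 fell (-0.93, adjusted p = 0.0377) with traction in Tem1WT/WT scars, where 1725 of all 18853 genes were called and 5.61% were called higher, so that the heat shock count is near that of all genes. Of 15 clock genes, 4 had log2 fold changes above 0 and 11 below in that comparison, with a median of -0.25. Of the 4, Npas2 (1.94, adjusted p = 0.0383), Cry1 (0.96, adjusted p = 0.0364) and Per1 (0.84, adjusted p = 0.0311) rose. Without Tem1WT/WT traction replicate 1 none of these 5 genes remained called, while calls over all genes fell to 360. Npas2 was at 1.95, 2.03 and 3.23 CPM in Tem1WT/WT sham and at 10.3, 10.6 and 6.88 CPM with traction. Bag3 was at 46.3, 44.2 and 43.0 CPM and at 66.0, 58.3 and 83.3 CPM. Replicate 1 was the highest stretched Tem1WT/WT scar for Cry1 and Per1 and the lowest for Hspb8, but not the highest for Npas2 or Bag3. Per1, which also responds to glucocorticoid and cyclic AMP, was lower in stretched Tem1lacZ/lacZ than in stretched Tem1WT/WT scars by -2.02 (SE 0.18, adjusted p = 0.00257), and by -1.75 (adjusted p = 0.00133) without that library. It was at 97.1, 98.0 and 95.2 CPM in Tem1WT/WT sham, 226, 140 and 154 CPM with traction, 52.7, 46.4 and 57.1 CPM in Tem1lacZ/lacZ sham and 42.8, 37.9 and 47.5 CPM with traction. The part of collection time and handling in the members' levels was not tested.

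Other cells also differed between the scars. The 12 endothelial markers summed to 1135 to 1303 CPM in stretched Tem1WT/WT scars and 343 to 871 CPM in the other 9 libraries, and 8 of 12 rose with traction in Tem1WT/WT scars, or 4 of 12 without replicate 1, where 5.61% of all genes rose, or 279 of 19388 without it. The 12 fibroblast markers summed to 47365, 80245 and 122713 CPM in stretched Tem1WT/WT scars and to 23945 to 58720 CPM elsewhere. Of these, 3 rose with traction in Tem1WT/WT scars, or 1 without replicate 1, beside the same shares of all genes, and all 12 interactions were below 0, none of them called. The 12 skeletal muscle markers ranged from 1670 to 17294 CPM in Tem1WT/WT sham and from 435 to 2512 CPM with traction, and in Tem1lacZ/lacZ scars from 1414 to 4186 CPM in sham and from 1896 to 3219 CPM with traction. All 10 adipocyte markers had negative log2 fold changes with traction in both genotypes (median -1.38 in Tem1WT/WT and -1.02 in Tem1lacZ/lacZ scars). Between genotypes all 10 were positive, both with traction (median 1.13) and in sham (median 0.97), and none of them was called. Keratinocyte sums ran from 19758 to 32688 CPM in stretched Tem1WT/WT and from 19843 to 58726 CPM in stretched Tem1lacZ/lacZ scars. The macrophage markers summed to 4462 to 6182 CPM in stretched Tem1WT/WT scars and 2258 to 4816 CPM elsewhere. Their part in the members' changes was not tested.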

How the data were processed

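The authors sequenced stranded mRNA libraries (TruSeq) from 12 mouse scars and deposited whole-number read counts per gene symbol, 1 table per scar. The submitters' processing notes name fastp 0.20.0, HISAT2 2.1.0, featureCounts 2.0.0 and GRCm38. The annotation and the strand setting of counting are not given in the sources used here. The 2 repeated symbols were kept as separate rows. Counts were filtered by filterByExpr (18853 of 35976 genes), TMM-normalized and fitted with edgeR 4.0.16 in R 4.3.3: glmQLFit with robust settings, 1 model of the 4 groups, 8 residual degrees of freedom, glmQLFTest for 5 two-sided comparisons and Benjamini-Hochberg adjustment over all genes tested. The study used DESeq2, tried here as an alternative (1.42.0) beside limma-voom 3.58.1 with sample weights, other filters and scalings, a replicate block, the libraries compared alone, and each library left out. Log2 CPM used a prior count of 2. The script was tested on simulated counts. Figures were drawn with matplotlib 3.10.9.

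Members and gene lists were chosen with earlier results of these data known. Named genes were the 10 members, the 4 genes called with the largest absolute change in each list and comparison (the 2 largest at a mean log2 CPM of at least 1 where none was called), the 3 genes nearest to each member, and Cd248. The recounts of members and lists without Tem1WT/WT traction replicate 1 were chosen after its markers were seen. Promoters came from RefSeq (GRCm38.p6), transcripts from GENCODE vM21, and no sequence of Egr1 is printed. Some genes that this rule names are not reported here.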

Additional observations from a re-analysis of the deposited data

How the results depend on the processing

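The number of called members depended on the fit. It was 2 in traction against sham in Tem1WT/WT scars and 0 when the 6 libraries compared were fitted alone, 1 in Tem1lacZ/lacZ against Tem1WT/WT with traction and 4 with DESeq2's Wald test or 0 with the 6 libraries alone, and 0 in the interaction and 1 with DESeq2, which called 69 of all 18853 genes there. Fewer samples leave fewer degrees of freedom in the 6-library fits, where no gene of the table was called in these 2 comparisons. Leaving out each library in turn gave 0 to 4 members in the first of these comparisons, 0 to 4 in the second and 0 in the other 3. Over all genes, 1725 were called in traction against sham in Tem1WT/WT scars, 4047 by DESeq2, 748 by limma-voom with sample weights, 1011 among all genes with at least 1 count and 0 with the 6 libraries alone, and the cause of these gaps was not tested. Between genotypes with traction, 20 of 18853 genes were called by edgeR and 2334 by DESeq2. Upper quartile scaling moved the median log2 fold change of all genes to -0.12 with traction in Tem1WT/WT scars and to 0.14 between genotypes with traction.

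No called member changed direction under any alternative. Some uncalled values changed sign. In traction in Tem1WT/WT scars, Fosb was at -0.016 with at least 10 counts in every library, and upper quartile scaling gave Fos -0.015 and Fosb -0.092. In traction in Tem1lacZ/lacZ scars, Junb was at 0.033 over all genes with 1 count, 0.00700 with DESeq2 size factors, 0.00697 with DESeq2 and 0.066 with limma-voom, and Jun at -0.010 with upper quartile scaling. In sham, Junb was at 0.036 between genotypes with upper quartile scaling and Fosb at 0.38 with limma-voom. Leaving out single libraries turned the sign for these members, whose log2 fold changes then ranged as follows. For the interaction they were Atf3 -2.01 to 0.18 and Batf -1.09 to 0.22. For traction in Tem1lacZ/lacZ they were Atf3 -0.76 to 0.47, Jun -0.094 to 0.33, Junb -0.10 to 0.14 and Jund -0.17 to 0.071. For traction in Tem1WT/WT they were Atf3 -0.040 to 1.67, Egr1 -0.28 to 1.10, Fos -0.33 to 0.50 and Fosb -0.75 to 0.40. For genotype in sham they were Batf -0.25 to 0.21, Egr1 -0.44 to 0.084, Fos -0.36 to 0.45, Fosb -0.49 to 0.30, Fosl1 -0.82 to 0.091 and Junb -0.14 to 0.024. For genotype with traction they were Batf -1.20 to 0.11.

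The labels give no shared source behind a replicate number. The correlations of same-numbered scars within comparisons ran from -0.32 to 0.25. With a replicate block, Fosl1 rose by 2.78 (adjusted p = 0.0218) and Fosl2 by 1.35 (adjusted p = 0.0336) with traction in Tem1WT/WT scars, and the block changed no call of a member. Under it Fosb was at -0.075 in Tem1WT/WT traction, and Junb at 0.054 and Atf3 at -0.0079 in Tem1lacZ/lacZ traction.

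The lowest count of any member in a library was 13, for Fosl1. With traction in Tem1WT/WT scars, the 95% intervals of Fos, Fosb and Atf3 were among those wide enough to hold a doubling.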
